A study of Mus musculus with 38 samples.

Results

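The gene expression effects of losing Srsf2 and of carrying its P95H variant were set against each other gene by gene in mouse back skin after 12 days of treatment. Of the 38 libraries of the series, 13 enter this comparison: 3 of Srsf2 knockout skin with their 3 controls, and 2 of P95H skin with their 5 controls. A gene was compared where its mean was at least 10 over the libraries of each of the 2 whole-skin tables, which left 17993 of the 49585 genes listed. The knockout mice were Cre positive for Krt14-CreER and heterozygous for the tdTomato reporter. Their controls were Cre negative, carried the same SRSF2 KO set label, and were heterozygous, homozygous and wild type for tdTomato. These 3 controls had been treated for 12, 12 and 10 days, the last being replicate 3. The P95H mice were Cre positive and their 5 controls Cre negative, all with the SRSF2 MUT label and wild type for tdTomato, and all treated for 12 days. Every mouse, controls included, received 4-hydroxytamoxifen on the back skin every other day, and RNA came from whole snap-frozen skin. Cre status and the allele change cannot be told apart in either set, and the zygosity of P95H is not given in the labels. Library kits differed, TruSeq Stranded Total RNA Gold for the knockout set and a stranded kit using Ribo-Zero Plus depletion for the P95H set, so each effect was taken within its own set and levels were never compared between sets.

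SRSF2 is a serine/arginine-rich splicing factor that binds short exonic sequences and promotes inclusion of the exons that hold them. The P95H substitution, known from human myeloid neoplasms, shifts the RNA sequences that SRSF2 prefers, whereas a knockout removes the protein. Krt14 is the keratin of basal keratinocytes, so its promoter directs Cre to the epidermis and hair follicles, while whole skin also holds dermis, fat, muscle, nerves and immune cells. In such bulk RNA, fewer cells of a type and less RNA per cell cannot be told apart.

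Values are given in steps. Every deposited value was a whole multiple of the smallest positive value of its library, and a step is that smallest value. Steps are not raw reads, and genes at the bottom of a library mostly sit at 1 step, with 0 to 40 genes per library listed at 0. Totals were 28515245 to 30538127 steps in the knockout libraries and their controls and 16100013 to 16577413 steps in the P95H libraries and theirs. Srsf2 itself had 2303, 2559 and 2382 steps in knockout skin, against 2885, 2879 and 2996 steps in its controls, a log2 effect of -0.28 (SE 0.10, limma adjusted p 0.164). It had 3586 and 3618 steps in P95H skin, against 3198, 3009, 3674, 3326 and 4094 steps in its controls (log2 0.07, limma adjusted p 0.802). In sorted reporter-positive cells of 10-day knockout skin it had 3659, 3359 and 1900 normalised counts, against 17560, 18190 and 20600 in sorted control cells (log2 -2.71, limma adjusted p 0.043). The epidermal label held in all libraries, with Krt14 between 56521 and 97925 steps in the knockout set and between 18060 and 52001 steps in the P95H set. Knockout replicate 3 stood apart in sex-linked genes, with 1 step of Xist and 6138 steps of the Y-linked gene Ddx3y, which was at most 82 steps in every other whole-skin library, and results are given with and without this replicate below. Xist varied elsewhere too, with 1130 and 900 steps in knockout replicates 1 and 2, against 94, 216 and 1395 steps in their controls. It had 12218 and 1457 steps in P95H skin, against 12224, 12096, 13280, 2750 and 1279 steps in its controls. The part of this variation in the effects was not tested.

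The 2 effects ran in the same direction for most genes that moved. At a limma adjusted p of 0.05, 204 genes were called in the knockout comparison (1.13% of those compared, with 122 higher, 0.678%, and 82 lower, 0.456%) and 1254 in the P95H comparison (6.97%, with 715 higher, 3.97%, and 539 lower, 3.00%). Both comparisons called 72 genes, which is 35.3% of the knockout calls and 5.74% of the P95H calls. Of these, 50 were higher in both (0.278% of genes compared), 21 were lower in both (0.117%) and 1 was opposite (0.00556%). Across all 17993 genes the effects had a Pearson r of 0.51 and a Spearman rho of 0.37, a description over genes, which are not independent replicates. They shared a sign in 61.9% of all genes, in 176 of the 204 knockout calls (86.3%) and in 1079 of the 1254 P95H calls (86.0%). Of the 76 genes with a P95H effect above 2 on the log2 scale, 74 lay above 0 in the knockout comparison, with a median knockout effect of 2.13. Of the 75 genes with a P95H effect of -2 or less, 8 lay above 0 in the knockout comparison, and the median knockout effect was -2.91.

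**Figure D1:**
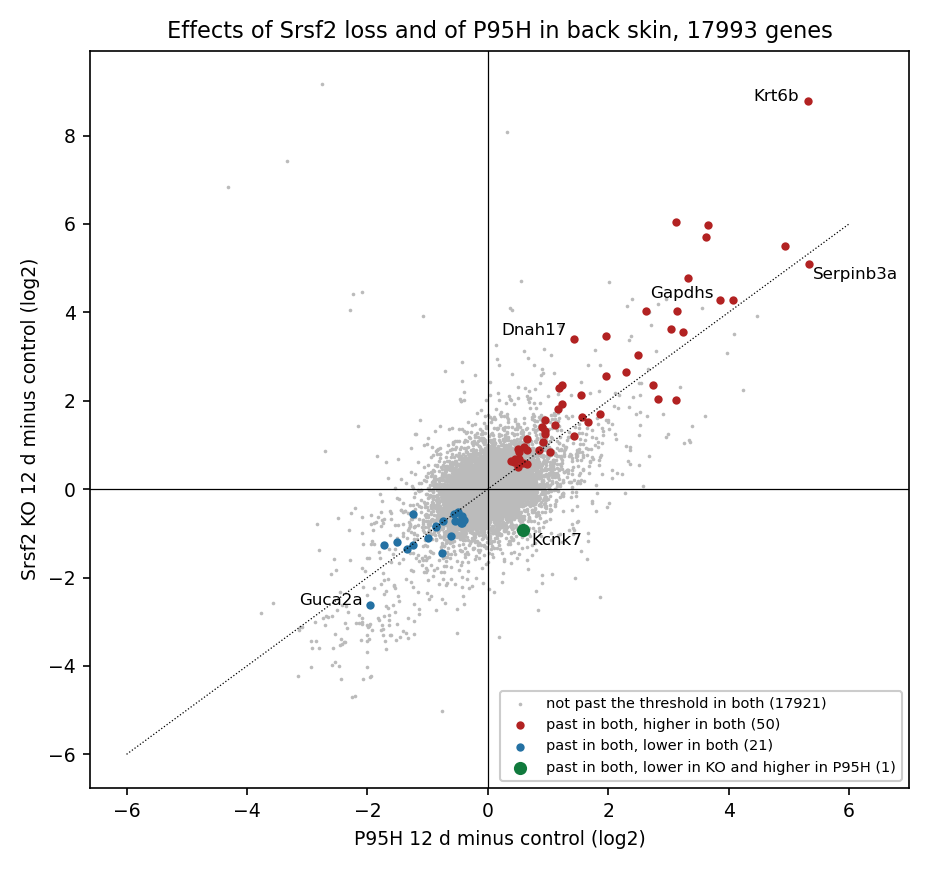
Log2 effect of Srsf2 knockout at 12 days minus control (vertical axis) against that of P95H at 12 days minus control (horizontal axis) for 17993 genes, with the genes called in both comparisons in colour and the dotted line marking equal effects. The 50 genes higher in both lie at the upper right, 40 of them above the dotted line, and the 21 lower in both lie at the lower left. Kcnk7 is the 1 gene called in opposite directions.

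The number of shared calls rested on single libraries. It was 25, 34 and 13 without knockout replicates 1, 2 and 3, 24, 20 and 16 without their controls 1, 2 and 3, 45 and 25 without P95H replicates 1 and 2, and 63 to 68 without any 1 of the 5 P95H-set controls. On the deposited values, which carry a further factor per library, 27 genes were called in the same direction, 26 higher and 1 lower, where the steps gave 50 and 21, and 22 of these 27 were among the 71. Without knockout replicate 3, all 72 genes kept their sign, 29 had a larger knockout effect, and all 72 had an unadjusted limma p under 0.05, while knockout calls over all genes dropped to 27. The remaining libraries had also served to choose the 72 genes, so their signs and unadjusted p could not test the part of replicate 3. Between single libraries, each knockout library minus the mean of its controls against each P95H library minus its own, r ranged between 0.15 and 0.51. For 1394 genes (7.75%) the libraries did not overlap with their controls in either set and moved the same way, 727 higher (4.04%) and 667 lower (3.71%), and for 116 (0.645%) they moved in opposite ways. All 71 genes called in the same direction were among the 1394, a count that rests on the same libraries as the calls.

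The promoters of 4 genes that rose in both comparisons and of the 1 gene called in opposite directions are shown because these genes are described in detail below. Each run is RefSeq sequence on the build GRCm38.p6, from 250 bases before to 50 bases after the start. Serpinb3a lies at chr1:107052254-107052553 on the minus strand, Stfa1 at chr16:36276898-36277197 on the plus strand, Stfa3 at chr16:36455343-36455642 on the minus strand, Sprr2d at chr3:92338890-92339189 on the plus strand and Kcnk7 at chr19:5704221-5704520 on the plus strand. Capitals mark the AP-1 letters TGANTCA or the TATA letters TATAAA, both searched on both strands, and these motifs did not overlap each other in the runs shown.
Serpinb3a: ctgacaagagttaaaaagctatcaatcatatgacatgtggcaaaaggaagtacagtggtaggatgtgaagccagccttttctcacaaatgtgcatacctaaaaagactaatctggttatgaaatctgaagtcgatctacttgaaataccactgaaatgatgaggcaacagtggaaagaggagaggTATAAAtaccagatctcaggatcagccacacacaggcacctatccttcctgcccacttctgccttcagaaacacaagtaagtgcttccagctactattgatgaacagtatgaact
Stfa1: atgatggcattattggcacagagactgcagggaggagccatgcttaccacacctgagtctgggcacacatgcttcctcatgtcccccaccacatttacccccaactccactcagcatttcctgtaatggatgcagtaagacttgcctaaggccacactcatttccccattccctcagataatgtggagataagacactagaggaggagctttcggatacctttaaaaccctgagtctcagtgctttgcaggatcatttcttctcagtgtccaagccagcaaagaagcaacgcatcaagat
Stfa3: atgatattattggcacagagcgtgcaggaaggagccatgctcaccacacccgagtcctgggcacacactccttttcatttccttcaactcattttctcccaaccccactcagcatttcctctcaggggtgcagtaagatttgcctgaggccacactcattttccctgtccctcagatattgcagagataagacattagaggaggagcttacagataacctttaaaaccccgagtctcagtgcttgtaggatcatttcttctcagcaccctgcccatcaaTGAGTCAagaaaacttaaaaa
Sprr2d: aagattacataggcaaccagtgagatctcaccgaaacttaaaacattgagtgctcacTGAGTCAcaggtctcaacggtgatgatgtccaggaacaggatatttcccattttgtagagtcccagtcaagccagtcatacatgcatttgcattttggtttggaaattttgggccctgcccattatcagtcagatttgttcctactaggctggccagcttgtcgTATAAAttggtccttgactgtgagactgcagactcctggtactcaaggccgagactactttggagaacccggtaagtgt
Kcnk7: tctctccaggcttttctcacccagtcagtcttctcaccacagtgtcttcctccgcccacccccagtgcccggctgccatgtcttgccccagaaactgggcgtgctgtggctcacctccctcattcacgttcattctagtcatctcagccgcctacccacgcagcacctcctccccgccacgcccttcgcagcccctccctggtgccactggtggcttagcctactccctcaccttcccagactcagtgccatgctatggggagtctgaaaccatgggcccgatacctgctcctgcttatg
Serpinb3a held the TATA letters at -65, Sprr2d held the AP-1 letters at -193 and the TATA letters at -29, Stfa3 held the AP-1 letters at +30, and neither motif was found in the windows of Stfa1 and Kcnk7. Of the 40 promoters listed for 37 of the genes higher in both, 5 held the AP-1 letters (12.5%) and 5 the TATA letters (12.5%), beside 5.90% and 8.31% of the 15062 promoters of genes compared. Among 18 promoters listed for 13 of the genes lower in both, 1 held each (5.56%). These are matches of letters and not binding sites.

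Genes of stressed and wounded epidermis made the largest shared increases. Krt6b, a keratin switched on in wounded epidermis, had 5247, 11774 and 63018 steps in knockout skin, against 49, 10 and 84 steps in its controls. It had 1333 and 14500 steps in P95H skin, against 272, 91, 86, 76 and 96 steps in its controls. Every knockout and P95H library stood far above its controls, while the libraries within each group differed by an order of magnitude. The log2 effects were 8.77 (SE 1.46, limma adjusted p 0.0209) and 5.32 (SE 0.83, limma adjusted p 0.00161). Serpinb3a, a clade B serpin that inhibits proteases, had 203, 168 and 189 steps in knockout skin, against 6, 3 and 5 steps in its controls. It had 269 and 547 steps in P95H skin, against 18, 5, 7, 13 and 5 steps in its controls. The knockout libraries lay close together, neither set overlapped with its controls, and the log2 effects were 5.08 (SE 0.67, limma adjusted p 0.00602) and 5.34 (SE 0.45, limma adjusted p 2.77e-05). Their difference, knockout minus P95H, was -0.26 with an SE of 0.84 on the log2 scale.

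Stefin A genes of chromosome 16, which encode inhibitors of cysteine proteases, rose in both. Stfa1 had 226, 317 and 555 steps in knockout skin, against 9, 3 and 6 steps in its controls, and 128 and 378 steps in P95H skin, against 33, 10, 17, 26 and 9 steps in its controls. Stfa3 had 813, 963 and 1544 steps in knockout skin, against 127, 27 and 76 steps in its controls, and 1256 and 2777 steps in P95H skin, against 245, 139, 249, 344 and 145 steps in its controls. BC100530, whose gene at chr16:36359382-36367748 lies between them, had 730, 808 and 1945 steps in knockout skin, against 46, 6 and 37 steps in its controls, and 2370 and 7244 steps in P95H skin, against 232, 78, 119, 217 and 93 steps in its controls. None of these 3 genes overlapped between groups in either set. Their log2 effects in the knockout and P95H comparisons were 5.71 and 3.63 for Stfa1, 4.03 and 3.14 for Stfa3, and 5.50 and 4.94 for BC100530, and none of the differences was called. Stefin genes are close copies of each other, so reads may have been split between them.

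Sprr2 genes and gasdermins rose as well. Sprr2d, a small proline-rich envelope protein, had 257, 565 and 629 steps in knockout skin, against 15, 3 and 4 steps in its controls (log2 6.04, limma adjusted p 0.0125). In P95H skin it had 27 and 241 steps, against 21, 17, 5, 3 and 7 steps in its controls (log2 3.12, limma adjusted p 0.0351), so P95H replicate 1 stood only just above its highest control. Sprr2a3 had 228, 385 and 960 steps in knockout skin, against 25, 7 and 19 steps in its controls, and 106 and 384 steps in P95H skin, against 42, 20, 11, 17 and 16 steps in its controls. Sprr2a2, a near-identical neighbour that may share its reads, was also called in both (log2 3.62 and 3.04). Gsdmc, a gasdermin of the pore-forming family, had 1056, 833 and 2490 steps in knockout skin, against 47, 17 and 9 steps in its controls, and 628 and 2469 steps in P95H skin, against 220, 94, 78, 127 and 43 steps in its controls. Its log2 effects were 5.99 and 3.66, and those of its paralog Gsdmc2 were 4.04 and 2.63. The serpin Serpinb6c rose with log2 effects of 2.35 and 2.75. Krt16, the usual partner of Krt6 keratins, had 4498, 10333 and 35745 steps in knockout skin, against 949, 305 and 1127 steps in its controls (log2 4.10, limma adjusted p 0.0591), and 2712 and 18101 steps in P95H skin, against 702, 943, 514, 363 and 604 steps in its controls (log2 3.56, limma adjusted p 0.00242). It thus missed the threshold in the knockout comparison alone.

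A further group of genes with even replicates, named here after their values were seen, was called in both comparisons under the loss of any 1 library. Gapdhs, the glyceraldehyde-3-phosphate dehydrogenase of sperm, had 90, 161 and 186 steps in knockout skin, against 8, 6 and 5 steps in its controls. It had 86 and 99 steps in P95H skin, against 8, 5, 4, 7 and 4 steps in its controls. All mutant libraries lay at least 10 times above their controls' highest value, and the log2 effects were 4.28 (SE 0.27, limma adjusted p 2.29e-05) and 3.86 (SE 0.33, limma adjusted p 2.77e-05). Gm8615, a predicted gene, had 126, 95 and 135 steps in knockout skin, against 15, 10 and 16 steps in its controls, and 58 and 76 steps in P95H skin, against 9, 12, 15, 11 and 9 steps in its controls. Col2a1, the collagen of cartilage, had 35, 52 and 52 steps in knockout skin, against 8, 10 and 14 steps in its controls, and 30 and 31 steps in P95H skin, against 3, 5, 2, 3 and 5 steps in its controls. Ms4a10, a member of the membrane-spanning Ms4a family, rose with log2 effects of 2.02 and 3.12. Abcb1b, the P-glycoprotein efflux pump, had 1392, 1048 and 1115 steps in knockout skin, against 536, 501 and 442 steps in its controls, and 632 and 625 steps in P95H skin, against 418, 306, 328, 331 and 260 steps in its controls. These 5 genes, with Serpinb3a and Stfa1, made up the 7 that stayed called in both comparisons whichever of the 13 libraries was left out. On the deposited values all of them but Abcb1b were called in both.

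Several receptors and ligands of immune cells were among the shared increases. Cxcr2, the chemokine receptor of neutrophils, had 155, 129 and 362 steps in knockout skin, against 44, 22 and 34 steps in its controls, and 99 and 126 steps in P95H skin, against 25, 16, 37, 35 and 33 steps in its controls. Its log2 effects were 2.56 (limma adjusted p 0.025) and 1.96 (limma adjusted p 0.00317). Over all genes, 0.678% rose with the knockout, and 3.97% rose and 3.00% fell with P95H. Of 20 T cell and NK cell genes, 7 lay above 0 in both and 8 below 0 in both, with medians of 0.05 and -0.05. They held 1 increase with the knockout, and 3 increases and 3 decreases with P95H. The knockout increase was that of Icos, a costimulatory receptor of T cells, which had 115, 129 and 121 steps in knockout skin, against 54, 47 and 28 steps in its controls, and 85 and 83 steps in P95H skin, against 31, 28, 15, 33 and 26 steps in its controls. Il2ra, the high-affinity interleukin-2 receptor chain, rose with log2 effects of 1.40 and 0.90, Ccl22, a chemokine of dendritic cells, with 2.35 and 1.23, and Clec4n, the fungal receptor dectin-2, with 2.13 and 1.55. Further shared increases were those of Acox2, a peroxisomal acyl-CoA oxidase (1.70 and 1.86), and Lpo, lactoperoxidase (3.46 and 1.96).

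Increases of less than 2-fold in both comparisons, picked out after the values were seen, included Polk, Apaf1 and Rev1. Polk, a translesion DNA polymerase, had 769, 491 and 541 steps in knockout skin, against 364, 296 and 300 steps in its controls, and 598 and 682 steps in P95H skin, against 392, 329, 359, 402 and 293 steps in its controls. Apaf1, the scaffold of the apoptosome, had 1531, 1466 and 1654 steps in knockout skin, against 964, 1089 and 1102 steps in its controls, and 889 and 983 steps in P95H skin, against 636, 637, 542, 644 and 538 steps in its controls. Neither gene overlapped between groups in either set, and the log2 effects were 0.88 and 0.85 for Polk and 0.56 and 0.65 for Apaf1. Rev1, which recruits translesion polymerases, rose by 0.63 and 0.38 on the log2 scale.

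Over the 50 genes higher in both, the median effects were 1.86 in the knockout and 1.43 in the P95H comparison, where the medians of all genes were 0.01 and -0.00. The knockout effect was the larger in 40 of the 50, and 31 changed at least 2-fold in both. The 21 genes lower in both moved less, with medians of -0.77 and -0.75, the knockout effect being the larger in 14, and 5 changed at least 2-fold in both. The difference itself was called for 1 of the 71 genes, Dnah17. The knockout comparison had fewer calls (204 against 1254) and a larger median SE over all genes (0.19 against 0.16). A call in both therefore favoured genes with large knockout effects, so these counts do not show a stronger effect of the knockout.

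**Figure D2:**
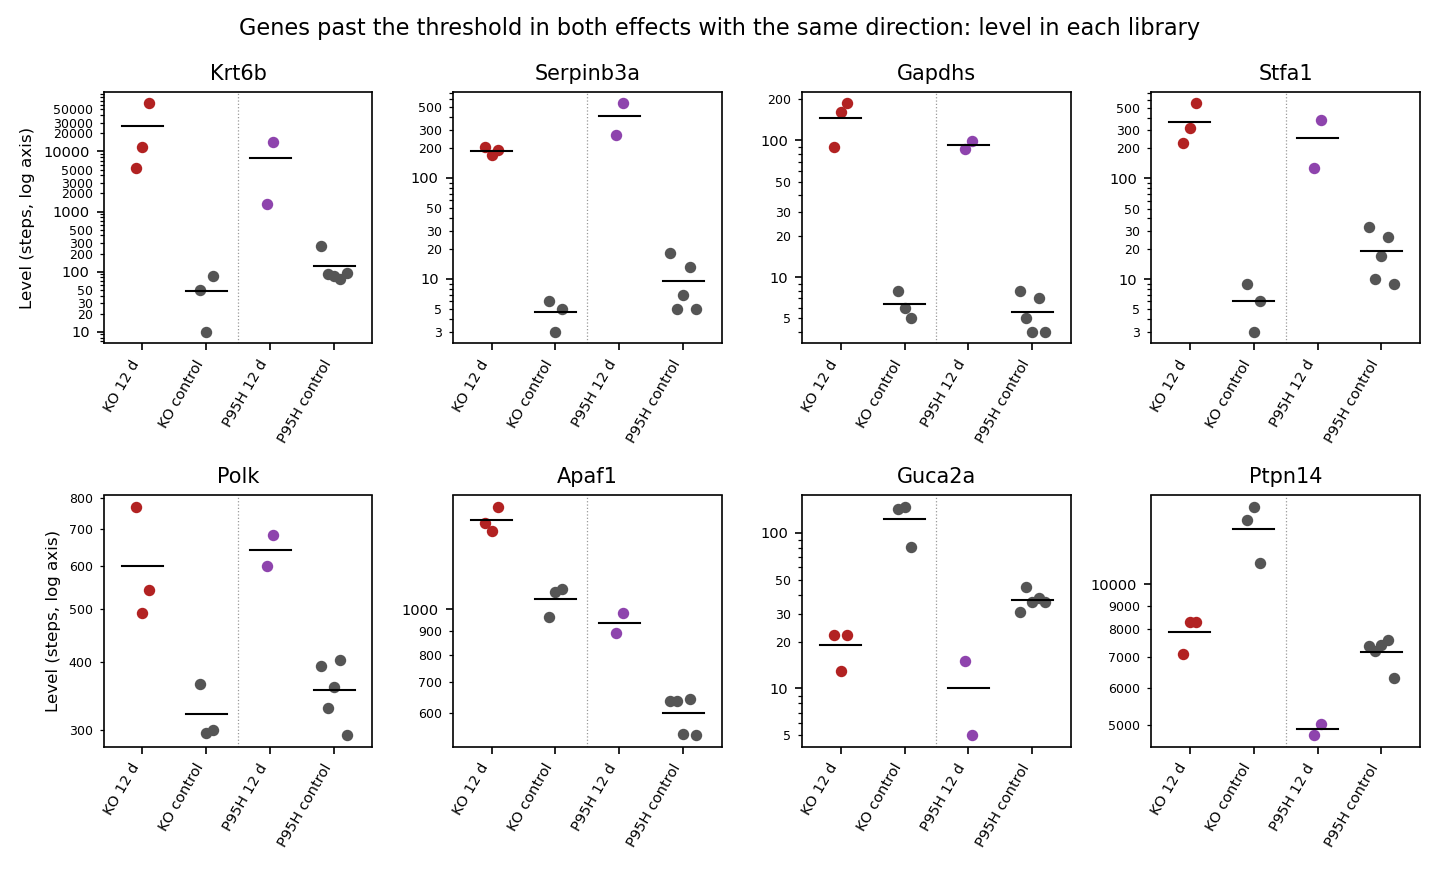
Level in steps (log axis) of 8 genes called in the same direction in both comparisons, with 1 point per library and a line at the group mean, for knockout, its controls, P95H and its controls. Neither set overlaps with its controls for any gene shown: Gapdhs runs between 90 and 186 steps in knockout skin and between 5 and 8 in its controls, and Guca2a between 13 and 22 steps in knockout skin and between 81 and 147 in its controls.

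A part of the 21 genes lower in both is described here, and a shared function of these genes was not tested. Guca2a, the secreted peptide guanylin, named after its values were seen, had 22, 13 and 22 steps in knockout skin, against 143, 147 and 81 steps in its controls. It had 15 and 5 steps in P95H skin, against 31, 45, 36, 38 and 36 steps in its controls. These were the lowest libraries of each set by a wide gap, and the log2 effects were -2.63 (SE 0.35, limma adjusted p 0.00681) and -1.95 (SE 0.32, limma adjusted p 0.00206). Bcl2l14, a member of the Bcl2 family, had 80, 87 and 72 steps in knockout skin, against 214, 208 and 156 steps in its controls, and 25 and 27 steps in P95H skin, against 63, 65, 66, 66 and 55 steps in its controls. Mycl, a Myc family transcription factor, had 692, 1015 and 770 steps in knockout skin, against 1927, 1606 and 1769 steps in its controls, and 399 and 456 steps in P95H skin, against 803, 728, 707, 794 and 1331 steps in its controls. Both genes fell about alike in the 2 comparisons, with log2 effects of -1.25 and -1.24 for Bcl2l14 and of -1.11 and -0.99 for Mycl.

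The Wnt pathway genes Nkd2, an inhibitor that binds Dishevelled, and Fzd10, a Wnt receptor, fell with log2 effects of -0.85 and -0.87 and of -1.06 and -0.61. Ptpn14, a phosphatase that binds the growth regulator YAP, had 7096, 8321 and 8303 steps in knockout skin, against 13747, 14659 and 11095 steps in its controls, and 4745 and 5021 steps in P95H skin, against 7373, 7188, 7426, 7581 and 6291 steps in its controls. The groups stood apart in both sets, and the log2 effects were -0.73 (limma adjusted p 0.0437) and -0.55 (limma adjusted p 0.0106). Foxq1, a forkhead factor whose loss alters the hair coat of satin mice, had 391, 416 and 442 steps in knockout skin, against 640, 650 and 775 steps in its controls, and 320 and 357 steps in P95H skin, against 614, 516, 497, 531 and 702 steps in its controls. Slc6a2, the noradrenaline transporter, fell with log2 effects of -0.56 and -1.25, and D7Ertd443e with -1.20 and -1.51. Dnajc6, the clathrin uncoating factor auxilin (-0.83 and -0.86), Nhsl1 (-0.56 and -0.56), the kinesin Kif3c (-0.51 and -0.50) and Epb41l4b (-0.73 and -0.45) fell in both by similar amounts. None of the lower genes stayed called in both comparisons under the loss of every single library.

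Kcnk7 was the 1 gene called in opposite directions. It encodes a subunit of the KCNK family of potassium channels and lies at chr19:5704367-5707109. It had 157, 163 and 167 steps in knockout skin, against 318, 307 and 297 steps in its controls, and 141 and 177 steps in P95H skin, against 116, 99, 106, 106 and 100 steps in its controls. The knockout libraries thus all lay below their controls and the P95H libraries all above theirs. The log2 effects were -0.92 (SE 0.12, limma adjusted p 0.00621) and 0.58 (SE 0.13, limma adjusted p 0.0145), and their difference was -1.50 (SE 0.17, limma adjusted p 0.000133). At 28 days Kcnk7 had 139, 132, 116 and 128 steps in P95H skin, against 131, 111 and 110 steps in its controls (log2 0.13, limma adjusted p 0.482), and in knockout skin it had 150, 148 and 125 steps at 4 days and 277, 239 and 246 steps at 10 days. The 10-day libraries therefore lay between the 12-day libraries and the controls. On the deposited values, when the larger p of both comparisons was adjusted, and without P95H replicate 2, no gene was called in opposite directions, and without P95H-set control 5 there were 2. At unadjusted limma p under 0.05 in both comparisons, 89 genes were opposite and 1120 ran the same way.

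Among genes whose groups did not overlap in either set but that missed the threshold in at least 1 comparison, opposite movement included Add2, a membrane skeleton adducin. It had 4, 30 and 27 steps in knockout skin, against 126, 123 and 82 steps in its controls (log2 -2.74, limma adjusted p 0.0856), and 77 and 121 steps in P95H skin, against 41, 76, 48, 43 and 68 steps in its controls (log2 0.84, limma adjusted p 0.124). Rps2, a ribosomal protein of the small subunit, had 8264, 17123 and 13193 steps in knockout skin, against 18341, 19528 and 20819 steps in its controls, and 9489 and 11941 steps in P95H skin, against 6710, 5963, 8822, 6342 and 7700 steps in its controls. Barx2, a homeobox factor of the hair follicle, had log2 effects of -0.60 and 0.38, and knockout replicate 3 with 1192 steps lay just below its lowest control with 1209 steps. Retsat, a retinol saturase, had log2 effects of -0.43 and 0.40, and Rnps1, a splicing-coupled mRNA factor, had -0.49 and 0.46. In the other direction Avil, an actin-binding advillin, had 243, 329 and 286 steps in knockout skin, against 227, 222 and 195 steps in its controls, and 78 and 87 steps in P95H skin, against 155, 125, 109, 165 and 121 steps in its controls (log2 0.40 and -0.69). Gpr146, an orphan receptor, had 2079, 2044 and 1905 steps in knockout skin, against 1291, 1802 and 1424 steps in its controls, and 584 and 553 steps in P95H skin, against 816, 745, 710, 768 and 619 steps in its controls (log2 0.43 and -0.36). Gng4 (0.80 and -0.84), Dnah8 (0.92 and -0.79), Tmem200b (0.38 and -0.40), Zfp40 (0.63 and -0.38) and Zfp383 (0.43 and -0.35) likewise lay above 0 in the knockout and below 0 in the P95H comparison. None of these named here had a called difference of effects, whereas Hadh, Tenm4, Gm28187 and KIAA1683, which also moved in opposite ways without overlap, did and are described with the differences. The muscle myosin Myh4 had 125055, 121800 and 111445 steps in knockout skin, against 106444, 63614 and 9570 steps in its controls, and 23558 and 11639 steps in P95H skin, against 32165, 37764, 41446, 30641 and 39623 steps in its controls, so 1 low control set much of its knockout effect. The largest opposite effects in the plot of both effects came from genes present in some libraries and all but missing in others. H2-Ea-ps, an MHC class II pseudogene that differs between mouse strains, had 13609, 8 and 7631 steps in knockout skin, against 0, 0 and 4 steps in its controls, and 1 and 1 step in P95H skin, against 2, 89, 2, 25 and 20 steps in its controls. It was called in neither comparison, and the part of strain background in the 2 effects was not tested.

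The difference of the 2 effects was called for 13 genes (0.0723%; 0 on the deposited values), 4 with the larger value in the knockout comparison and 9 with the larger value in the P95H comparison. Dnah17, a heavy chain of the ciliary motor dynein, rose in both, yet by different amounts. It had 409, 604 and 633 steps in knockout skin, against 51, 45 and 56 steps in its controls, and 24 and 27 steps in P95H skin, against 7, 11, 8, 11 and 8 steps in its controls. The log2 effects were 3.39 and 1.42 and their difference 1.97 (limma adjusted p 0.00845). Rrh, the retinal opsin peropsin, had 120, 151 and 139 steps in knockout skin, against 26, 21 and 27 steps in its controls, and 13 and 12 steps in P95H skin, against 12, 7, 19, 15 and 11 steps in its controls. Clca3a1, a regulator of chloride channels, had 3302, 2459 and 1769 steps in knockout skin, against 904, 553 and 430 steps in its controls, and 414 and 456 steps in P95H skin, against 651, 639, 629, 524 and 441 steps in its controls. Both rose in the knockout comparison and were not called in the P95H comparison, with differences of 2.39 for Rrh and 2.41 for Clca3a1.

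The effect was larger with P95H for Celf5, Calml3, Sox7 and Hadh. Celf5, an RNA-binding protein of the CELF splicing factor family, had 23, 44 and 37 steps in knockout skin, against 34, 33 and 29 steps in its controls, and 94 and 104 steps in P95H skin, against 14, 14, 17, 15 and 19 steps in its controls. Knockout and control libraries overlapped while the P95H libraries stood clear of theirs, and the difference was -2.51 (SE 0.33, limma adjusted p 0.00139). Calml3, a calmodulin-like protein of keratinocytes, had 2825, 2930 and 3431 steps in knockout skin, against 3837, 3223 and 4100 steps in its controls, and 2929 and 4318 steps in P95H skin, against 1511, 1613, 1756, 1506 and 1729 steps in its controls. Sox7, a transcription factor of blood vessels, had 525, 575 and 847 steps in knockout skin, against 793, 603 and 642 steps in its controls, and 1071 and 1269 steps in P95H skin, against 543, 456, 534, 523 and 407 steps in its controls. Hadh, an enzyme of mitochondrial fatty acid oxidation, had 2576, 2659 and 2457 steps in knockout skin, against 3082, 3128 and 3166 steps in its controls, and 2392 and 2244 steps in P95H skin, against 1647, 1479, 1868, 1605 and 1860 steps in its controls. These 3 genes were called in the P95H comparison only, and their differences were -1.41 for Calml3, -1.34 for Sox7 and -0.75 for Hadh.

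**Figure D3:**
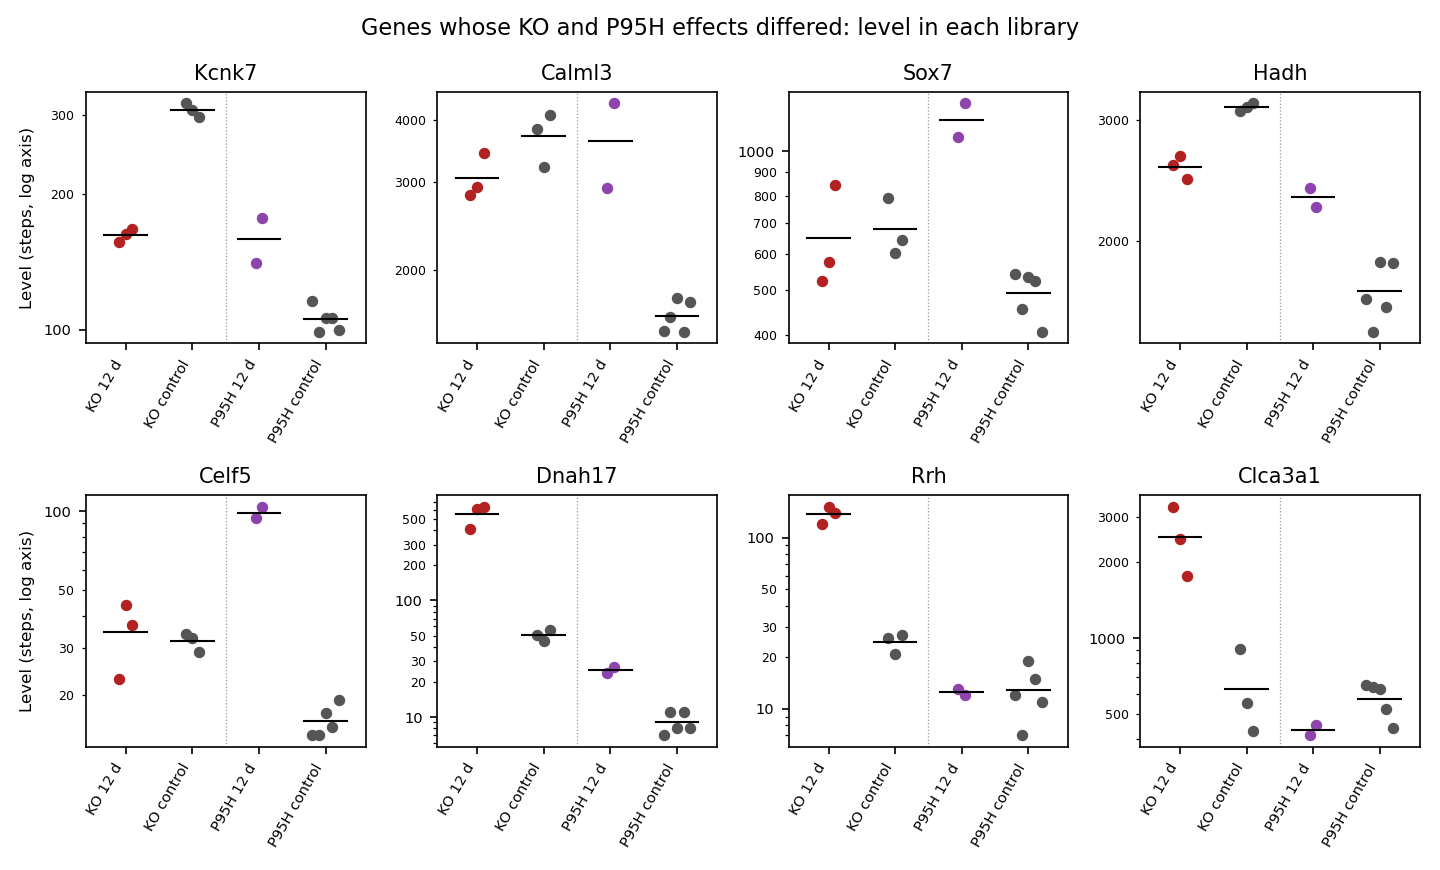
Level in steps (log axis) of 8 genes whose knockout and P95H effects differed, with 1 point per library and a line at the group mean. Kcnk7 is lower in knockout skin and higher in P95H skin than in the controls, Celf5 is apart from its controls in P95H skin only, and Rrh and Clca3a1 are above their controls in knockout skin only.

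The remaining called differences were those of the predicted genes Gm28187 (2.44) and Gm42498 (-1.35), of KIAA1683 (-2.82), of Tenm4, a teneurin adhesion protein (-0.85), and of Tmcc3 (-0.52). The 1182 genes called with P95H alone held 7 called differences and the 132 called with the knockout alone held 4, so for most genes called in 1 comparison a difference between the effects was not shown. The median SE of a difference was 0.25 on the log2 scale. Taking a separate SE for each effect, 10 of the 13 were called again, out of 15, and Clca3a1, Tenm4 and Tmcc3 were not. The count was 5 and 39 without knockout replicates 1 and 2, 76 and 6 without their controls 1 and 3, 7 and 8 without P95H replicates 1 and 2, 7 and 8 without P95H-set controls 1 and 4, and 10 to 16 without any other library.

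By function, most genes of the wound and stress list lay above 0 in both comparisons. The list was chosen with earlier results of these data known. It holds Krt6b, Serpinb3a, Stfa1 and Stfa3 of the shared calls above, so its counts restate those calls in part and do not test them. Of its 34 measured genes, 9 rose and none fell in the knockout comparison, and 13 rose and none fell in the P95H comparison. In both comparisons 6 rose, and 31 lay above 0. Of all genes, 0.678% rose with the knockout, 3.97% rose and 3.00% fell with P95H, and 0.278% rose in both. Of all 17993 genes, 5624 lay above 0 in both. The list's median effects were 1.72 and 1.74, where those of all genes were 0.01 and -0.00. The mean log2 level of the list was 8.30 to 9.69 in knockout skin, against 5.95 to 7.13 in its controls, and 7.59 to 9.05 in P95H skin, against 6.16 to 6.78 in its controls. Of the 18 neutrophil genes listed, 5 were abundant enough to compare, and Ly6g, Mpo and Elane were not among them. Of these 5, 3 rose in the knockout comparison, while 2 rose and Il1r2, a decoy receptor of interleukin-1, fell in the P95H comparison. Their mean log2 level was 8.84 to 9.21 in knockout skin, against 5.99 to 6.95 in its controls, and 6.77 to 7.75 in P95H skin, against 5.50 to 6.37 in its controls, and the part of such cells in the keratinocyte results was not tested. The alarmin subunits S100a8 and S100a9, which stressed keratinocytes also make and which both lists hold, rose in the knockout comparison (log2 4.00 and 4.69) and were not called in the P95H comparison (2.67 and 2.01). Csf3r, the receptor of the granulocyte growth factor, had log2 effects of 1.15 (limma adjusted p 0.103) and 1.06 (limma adjusted p 0.00724).

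Other immune and stromal lists differed in how far the effects ran together. Over all 17993 genes, 5624 lay above 0 in both and 5521 below 0 in both, 0.678% rose with the knockout and 3.97% with P95H, so a list without a knockout call is near that background. Of 24 macrophage and dendritic cell genes, 21 lay above 0 in both, with medians of 0.73 and 0.47, no knockout call and 5 increases with P95H. Of 38 interferon response genes, 30 lay above 0 in both, with medians of 0.35 and 0.74, no knockout call and 6 increases with P95H. Of 24 fibroblast genes, 22 lay above 0 in both, with medians of 0.65 and 0.43, no knockout call and 4 increases with P95H. Opposite signs were found for 6845 of all 17993 genes. Among the lists, 5 of 9 mast cell genes had them (medians -0.16 and 0.67). So did 8 of 17 endothelial genes (-0.05 and 0.06) and 8 of 19 adipocyte genes (-0.65 and -0.02), near the share of all genes. Of 42 p53 target genes, 2 rose in the knockout comparison, Apaf1 and Polk, and 16 with P95H, with medians of 0.24 and 0.43. Cdkn1a, the cell cycle inhibitor p21, had 2441, 3711 and 4328 steps in knockout skin, against 3300, 2257 and 3203 steps in its controls, and 4336 and 4684 steps in P95H skin, against 2600, 2585, 2869, 2708 and 3560 steps in its controls. Cdkn1a was called with P95H (log2 0.66, limma adjusted p 0.0089) and not with the knockout (0.24, limma adjusted p 0.556), while the difference was not called. Trp53 itself was at log2 0.04 and 0.00, and the p53 inhibitor Mdm2 at 0.24 and 0.34, neither called.

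Lists of sebaceous, cholesterol and cornified layer genes held P95H calls and no knockout call. Of 19 sebaceous gland genes, 13 rose with P95H, where 3.97% of all genes did, and none was called with the knockout, where 1.13% of all genes were, with medians of 1.04 for P95H and 0.25 for the knockout. Awat1, which makes wax esters, had 1281, 1517 and 1311 steps in knockout skin, against 286, 658 and 832 steps in its controls (log2 1.34, limma adjusted p 0.0814), and 833 and 861 steps in P95H skin, against 300, 206, 368, 343 and 133 steps in its controls (log2 1.74, limma adjusted p 0.00727). Awat1 groups did not overlap in either set, as was so for 22.7% of all genes in the knockout set and 27.9% in the P95H set. A missing knockout call does not show that a shift was absent, and the lack of overlap does not show that there was one. Of 23 cholesterol synthesis genes, 11 rose with P95H and none was called with the knockout (medians 0.46 for P95H and -0.07 for the knockout). Of 35 cornified layer genes, 10 rose and 2 fell with P95H, none was called with the knockout, and 10 had opposite signs (medians 0.70 for P95H and 0.14 for the knockout). No gene of the sebaceous, cholesterol or cornified lists had a called difference between the 2 effects.

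Hair genes had large negative medians with almost no calls. Over the 41 genes of the hair shaft and inner root sheath, the medians were -2.91 and -1.83, and 39 lay below 0 in both, yet none was called with the knockout and Gata3 alone fell with P95H. Their mean log2 level was 3.80, 9.0 and 7.07 in knockout skin, against 10.94, 6.30 and 10.78 in its controls, and 3.82 and 6.68 in P95H skin, against 6.42, 9.08, 4.37, 6.22 and 9.22 in its controls. Libraries of both kinds overlapped in each set, and leaving out 1 library moved the medians between -4.72 and -1.24 for the knockout and between -3.37 and -0.38 for P95H. Without the hair genes the correlation of the effects was 0.46, and without the wound list 0.49. Of 11 melanocyte genes, 10 lay below 0 in both, with none called. Of 57 mitosis genes, 46 lay above 0 in both, with medians of 0.15 and 0.28 and none called, and the proliferation gene Mki67 had log2 effects of 0.19 and 0.27. Basal keratins Krt14 (0.30 and 0.93) and Krt5 (-0.08 and 0.24) and suprabasal keratins Krt10 (0.06 and 0.30) and Krt1 (0.16 and 1.36) were not called with the knockout, and Krt14 and Krt1 rose with P95H, with no called difference. Krt6a had log2 effects of 1.23 and 1.92 and Krt17 of -0.08 and 0.56, with no call. The 39 core spliceosome and 14 SR protein genes held no call in either comparison, near the background share for the knockout (1.13%), with all 4 medians between -0.07 and 0.04.

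**Figure D4:**
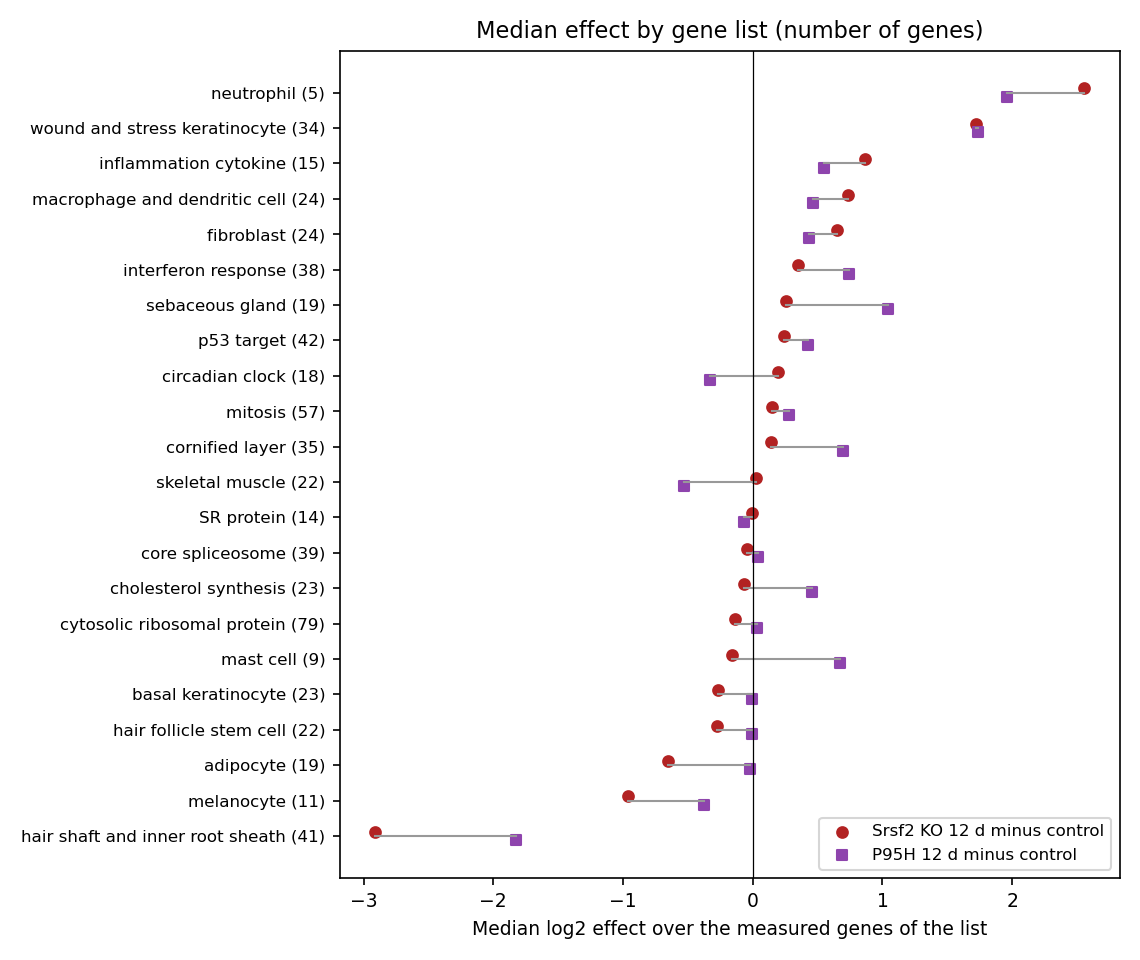
Median log2 effect over the measured genes of each list (number of genes in brackets) for the knockout (circles) and P95H (squares), joined by a line. The neutrophil and wound lists are highest in both, the hair shaft list is lowest in both at -2.91 and -1.83, and the sebaceous list is at 0.25 for the knockout and 1.04 for P95H.

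Other libraries of the series were then examined for the 71 genes. The Cre status of these other libraries is not given here. The 28-day P95H libraries entered the level filter and the estimate of the spread behind the 12-day calls, though not the 12-day effects themselves, and a fit of the compared groups alone gave 24 calls at 28 days among 36 shared genes. In P95H skin at 28 days, 4 libraries against 3 controls with the same treatment time, 69 of the 71 genes had the same sign and 49 were called in the same direction. Those were 36 of the 50 higher genes, where 6.77% of all genes were called higher, and 13 of the 21 lower genes, where 5.49% were called lower, and none was called the other way. Where the loss of a 12-day library left fewer shared genes, the 28-day calls were 23 of 25, 28 of 34 and 12 of 13 without knockout replicates 1, 2 and 3, 22 of 24, 17 of 20 and 14 of 16 without their controls 1, 2 and 3, and 18 of 25 without P95H replicate 2. Gapdhs had 164, 103, 103 and 89 steps in 28-day P95H skin, against 2, 4 and 5 steps in its controls. Serpinb3a had 311, 676, 285 and 446 steps in 28-day P95H skin, against 20, 13 and 15 steps in its controls, and Guca2a had 12, 13, 16 and 10 steps, against 41, 39 and 56 steps in its controls. All 3 kept clear of their controls, as did Krt6b, with 2581, 6598, 1366 and 2781 steps in 28-day P95H skin, against 344, 77 and 67 steps in its controls. Foxq1 and Fzd10 were not called at 28 days (log2 -0.03 and -0.08), nor was Clec4n (0.02).

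In sorted reporter-positive cells of knockout skin at 10 days, 65 of the 71 genes were measured and 49 had the same sign, 32 of 45 higher and 17 of 20 lower. Of all genes compared and measured there, 46.4% lay above 0. Only Dnah17 was called, where 5 of 15869 genes were called in all (0.0315%, with 0.0189% higher and 0.0126% lower). Of the 65, 15 had the same sign and an unadjusted limma p under 0.05. All genes were not counted at that cut, so the 15 cannot be judged against a background. Calls were 2 without the whole-skin knockout replicate 2 and 0 without P95H replicate 2. Dnah17 had 484.6, 352.7 and 641.5 normalised counts in sorted knockout cells, against 27.99, 24.98 and 26.51 in sorted control cells (log2 4.13, limma adjusted p 0.0164). The whole-skin controls were Cre negative. Without the Cre status of the sorted controls, the sorted comparison may differ in design from the whole-skin comparison. Gapdhs did not follow its whole-skin effect: it had 580.5, 359.5 and 938.8 normalised counts in sorted knockout cells, against 730.0, 712.4 and 1061 in sorted control cells. Gm8615, Ms4a10 and Abcb1b likewise lay below 0 in sorted cells (log2 -0.50, -0.30 and -0.21). Col2a1, Serpinb3a and Stfa1 lay above 0 (0.58, 0.41 and 1.22), and neither Gapdhs nor any of these genes was called. Krt6b had 36420, 547.9 and 2547 normalised counts in sorted knockout cells, against 127.1, 376.1 and 54.73 in sorted control cells. Without sorted knockout replicate 2, left out after its values were seen, 9 of the 71 were called in the same direction, where 2.15% of all genes were called, among them Krt6b, Gsdmc, Gsdmc2, Serpinb6c, Sprr2a2 and Sprr2a3.

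**Figure D5:**
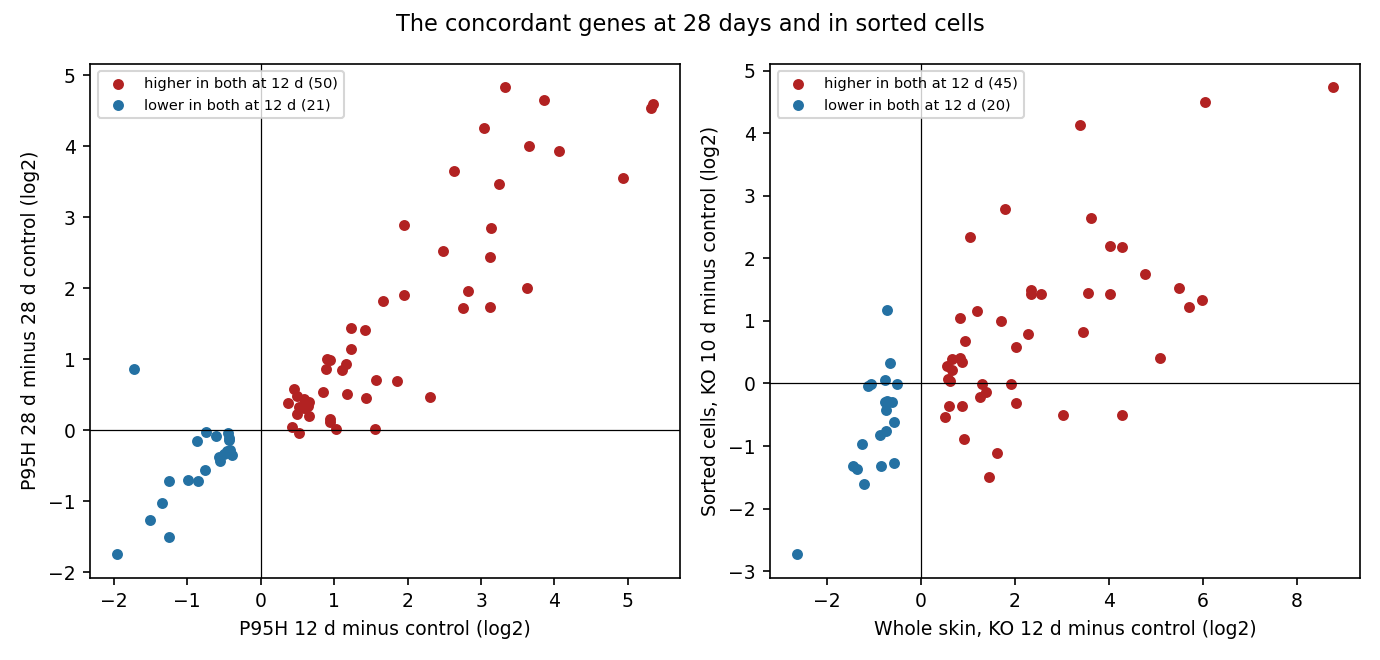
Left, log2 effect of P95H at 28 days against that at 12 days for the 71 genes called in the same direction at 12 days. Right, log2 effect in sorted knockout cells at 10 days against that in whole knockout skin at 12 days for the 65 of them measured, with genes higher in both in red and lower in both in blue: 69 of 71 share the sign on the left and 49 of 65 on the right.

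In knockout skin at earlier times, which share their controls with the 12-day comparison and are given as levels alone, the shared genes differed in when they were high. Dnah17 had 93, 105 and 123 steps at 4 days and 439, 473 and 313 steps at 10 days, and Gapdhs had 50, 52 and 41 steps at 4 days and 123, 131 and 109 steps at 10 days. Serpinb3a had 18, 7 and 26 steps at 4 days and 26, 80 and 8 steps at 10 days, while it ran between 168 and 203 steps at 12 days. Stfa1 was alike, with 11, 13 and 23 steps at 4 days, 36, 92 and 16 steps at 10 days and 226 to 555 steps at 12 days. Guca2a had 61, 43 and 29 steps at 4 days and 16, 9 and 15 steps at 10 days.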

How the data were processed

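Total RNA of mouse back skin, and of sorted reporter-positive cells, had been sequenced with stranded kits. The deposited signal is a normalised count for each gene, as the tables are named. STAR, featureCounts and DESeq2 were used per the submitters' processing notes, with no version or build given in the sources used here. Each whole-skin column was divided by its smallest positive value, which gave whole numbers (100% of values, tolerance 0.001), here called steps. The lowest genes mostly sit at 1 step and a few at 0, so depth is known only roughly. The deposited totals were 23415487 to 33012091 in the knockout set and 13652088 to 24931988 in the P95H set. In the sorted tables the whole multiples were taken as reads (45930438 to 92761588 per library).

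The analysis of log2(steps + 1), or log2(deposited value + 1) for sorted cells, used limma 3.58.1 (R 4.3.3) with the trend option, in 1 fit per table over all of its groups. Its two-sided moderated tests were adjusted by the Benjamini-Hochberg method at 0.05, over the genes that passed the filter in each set. Those were 19450 genes in the knockout set, 18311 in the P95H set and 17744 in sorted cells. Calls were then counted among the 17993 genes compared, 15869 of them in sorted cells. Differences of effects were tested in 1 fit of the 26 whole-skin libraries and adjusted over the 17993 genes. Fold changes on this scale understate low genes. p-values measure the spread between libraries labelled as biological replicates. edgeR 4.0.16 on the recovered sorted reads called 3 of 17744 genes, 1 of them among the 71 shared genes.

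Genes and lists were chosen with earlier results of these data known. Named genes with a mean of at least 50 in both tables were the 12 highest and 12 lowest shared calls, up to 8 opposite genes in each direction, the 6 largest differences in each direction, up to 4 members of each list, and 13 fixed genes. Other names were added after their values were seen. Not every gene the rule gives is named. Gene coordinates are GENCODE M21 (GRCm38), matched by Ensembl identifier for 49326 of 49585 genes. Alternatives were another pseudocount and filter, deposited values, equal totals, a replicate block, a fit of the compared groups alone, and loss of each library. Scripts were tested on simulated data.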

Additional observations from a re-analysis of the deposited data

Results flagged for a closer look

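Of 85 genes named here, 9 had 1 library among the 5 P95H-set controls at 12 days whose gap to its nearest neighbour was more than 0.71 of the range of the group, Dixon's limit for 5 values. Chance gives such a gap in about 1 in 20 groups. In 6 of the 9 the library was control 5. It had 1331 steps of Mycl, 1038 of Nkd2 and 289 of Dnajc6, each above the other controls, so the distance between P95H skin and its controls for these 3 genes lower in both comparisons was widened by it. It had 55 steps of Bcl2l14, 12469 of Krt1 and 37440 of Krt5, each below the other controls. Without control 5, 68 genes were called in the same direction and every effect of the named genes that was compared kept its call. Control 1 had 272 steps of Krt6b, above the other controls and below both P95H libraries. Control 4 had 11 steps of Lpo, below the others, and control 2 had 89 steps of H2-Ea-ps, above the others. The part of these libraries in the results was not tested beyond leaving each out.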

How the results depend on the processing

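Raising the filter to a mean of 50 left 47 genes called in the same direction, 6 called differences, r = 0.578, 32 calls at 28 days and 0 in sorted cells, and no filter gave 67 called differences and r = 0.366. Spearman's rho was 0.371. The deposited values put the median effect of all genes at 0.08 for the knockout and -0.10 for P95H, against 0.01 and -0.00 on steps. On the deposited values the counts were 27 shared, 0 opposite, 0 differences, 23 at 28 days and 0 in sorted cells. Equal totals gave 0 in sorted cells. A fit of the compared groups alone gave 36 shared genes, 4 differences and 24 calls at 28 days. Adjusting the larger p of both comparisons gave 9 shared genes, 0 opposite, 9 at 28 days and 0 in sorted cells. With the replicate block there were 40 shared genes, 0 opposite, 30 calls at 28 days and 0 in sorted cells. The numbers do not pair the libraries: same-numbered deviations correlated at -0.211, -0.458 and -0.0168 in the knockout set and 0.0619 and 0.367 in the P95H set. Leaving out 1 library at a time gave 13 to 68 shared genes, 0 to 2 opposite, 5 to 76 differences, r of 0.376 to 0.546, 12 to 49 calls at 28 days and 0 to 2 in sorted cells. Without sorted knockout replicate 2, chosen after seeing the data as were edgeR on reads, the loss of 28-day P95H replicate 1 and the loss of hair or wound genes, 9 were called. The causes were not tested. Of 57 effects of named genes, none reversed under any of these settings, and 33 lost their call on the deposited values. These effects were chosen as called on the same libraries, so their kept signs are not separate support. Steps hide raw depth, so counting error at low levels could not be separated from the spread between animals.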
